A study of Mus musculus with 2 samples.

Results

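A set of 8 genes of extracellular nucleotide and lysophospholipid sensing were followed in microglia from the prefrontal cortex of C57BL/6 mice. They are P2ry12, P2ry13, P2ry6, P2rx4, P2rx7, Gpr34, Entpd1 and Adora3, chosen by symbol, and all 8 were found among the 32589 genes that the files list. The sorted cells were CD45low and CD11b+, a gate meant for microglia, and came from a vehicle group and a corticosterone group, the latter given corticosterone, the main glucocorticoid of rodents, by oral gavage as a model of depression. The labels give no dose, duration, age, sex or number of animals, and each group was 1 library. No test between groups was therefore possible, no p-value is given, and every interval covers counting error only. Group and library cannot be told apart.

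ATP and ADP leave cells that are active, stressed or damaged, and microglia read them through P2 receptors. P2Y receptors are coupled to G proteins and P2X receptors are ion channels opened by ATP. Entpd1 (CD39) is a surface enzyme that degrades ATP and ADP, and Adora3 is a receptor for adenosine, which arises further along that breakdown. Gpr34 is a receptor for lysophosphatidylserine, related in sequence to the P2Y12 group of receptors. P2ry12 senses ADP, guides the movement of microglial processes toward sites of injury, and is widely used to mark homeostatic microglia.

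The vehicle library had 10500 cells after filtering and the corticosterone library had 17883, with medians of 3221 and 3961 UMIs per cell, a UMI being a tag that counts 1 captured transcript. In all, 101 barcodes occurred in both libraries. Microglia-like cells, named from 10 markers that exclude the 8 genes, numbered 8311 (33585770 UMIs) in vehicle and 15453 (72631435 UMIs) in corticosterone. All 10 markers were detected in both, and 3 of them were lower by 1.5-fold or more in corticosterone (Fcrls, Sparc and Slc2a5). Clustering put the microglia-like cells of the libraries largely in different clusters: cluster 1 held 7351 of the vehicle cells, and cluster 0 held 9556 of the corticosterone cells. The median share of mitochondrial UMIs in these cells was 2.48% in vehicle and 4.11% in corticosterone.

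The genes lie in 2 close pairs and 4 other places of the GRCm38 genome. P2ry13 (chromosome 3, 59207892 to 59210882, minus strand) and P2ry12 (chromosome 3, 59216272 to 59262871, minus strand) are 5389 bases apart, and both lie inside Med12l, a Mediator subunit gene on the opposite strand. The exons of P2ry13 share 0 bases with those of Med12l, and the exons of P2ry12 share 9. P2rx7 (chromosome 5, 122643911 to 122691432) and P2rx4 (chromosome 5, 122707544 to 122729738) are both on the plus strand with 16111 bases between them. Gpr34 (chromosome X, 13632089 to 13640858, plus strand) lies inside Cask on the opposite strand, with 0 shared exon bases. Adora3 (chromosome 3, 105870858 to 105908926, plus strand) shares 779 exon bases, 20.9% of its own, with Tmigd3 on the same strand, so reads in that stretch cannot be assigned by position alone. P2ry6 is on chromosome 7 (100937630 to 100974649, minus strand) and Entpd1 on chromosome 19 (40612366 to 40741602, plus strand). Whether the authors' counting used strand is not given in the sources used here.

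Promoter windows of the close pairs are shown because, in each pair, 1 gene passed the limit of size used below and its neighbour did not. RefSeq's GRCm38.p6 promoter table matched 6 of the 8 genes, with windows of 300 bases, and each line below is written 5′ to 3′ on the strand of the gene. The windows are chr3:59262936-59263235 for P2ry12, chr3:59210833-59211132 for P2ry13, chr5:122643677-122643976 for P2rx7 and chr5:122707294-122707593 for P2rx4. The P2ry12 window lies wholly outside the gene span given above, whose start on the minus strand is at 59262871. Capitals mark matches, on either strand, to 3 motifs: GAGGAA (a purine-rich box of the kind that PU.1 binds), TGANTCA (AP-1) and ACANNNTGT (the core of a glucocorticoid response element).
P2ry12: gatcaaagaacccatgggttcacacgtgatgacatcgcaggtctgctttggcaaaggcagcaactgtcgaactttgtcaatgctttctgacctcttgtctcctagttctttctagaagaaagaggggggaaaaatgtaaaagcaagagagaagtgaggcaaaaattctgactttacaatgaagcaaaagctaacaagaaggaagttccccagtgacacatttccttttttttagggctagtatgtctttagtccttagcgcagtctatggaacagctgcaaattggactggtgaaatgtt
P2ry13: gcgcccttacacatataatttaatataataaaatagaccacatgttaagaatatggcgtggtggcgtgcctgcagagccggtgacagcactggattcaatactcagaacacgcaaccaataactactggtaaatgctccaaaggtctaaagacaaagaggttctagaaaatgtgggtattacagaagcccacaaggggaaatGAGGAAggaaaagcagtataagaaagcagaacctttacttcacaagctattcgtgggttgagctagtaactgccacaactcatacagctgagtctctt
P2rx7: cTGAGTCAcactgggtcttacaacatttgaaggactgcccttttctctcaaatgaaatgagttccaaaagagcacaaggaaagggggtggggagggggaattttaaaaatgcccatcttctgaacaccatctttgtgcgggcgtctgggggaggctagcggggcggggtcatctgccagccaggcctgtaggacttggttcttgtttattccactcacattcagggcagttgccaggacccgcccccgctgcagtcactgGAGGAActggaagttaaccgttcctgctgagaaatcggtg
P2rx4: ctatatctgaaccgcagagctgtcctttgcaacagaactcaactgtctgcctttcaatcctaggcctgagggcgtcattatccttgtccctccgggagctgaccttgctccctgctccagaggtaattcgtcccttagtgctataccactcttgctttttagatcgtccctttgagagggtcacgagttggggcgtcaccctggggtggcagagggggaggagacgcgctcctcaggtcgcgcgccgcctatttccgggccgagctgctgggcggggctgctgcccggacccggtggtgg
The table has another P2rx7 window (chr5:122650133-122650432), not printed, with 1 match to GAGGAA and 0 to TGANTCA. The P2ry13 window held 1 match to GAGGAA, the P2rx7 window printed held 1 to GAGGAA and 1 to TGANTCA, and the P2ry12 and P2rx4 windows held 0 matches to any of the 3. Of 32851 windows in the table, 28.3% held GAGGAA, 7.81% TGANTCA and 6.85% ACANNNTGT. A match is a description of these letters and not a binding site.

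In microglia-like cells, 2 of the 8 genes were lower in corticosterone by 1.5-fold or more, 2 were higher, and 4 were past neither limit. All 8 passed the level limit of a mean of 20 CPM (counts per 1000000 UMIs) over both libraries. Among the 6612 genes at that level, 4.7% were lower by that much and 5.38% were higher. The median log2 ratio of corticosterone over vehicle was -0.15 over the 8 genes and -0.00 over all 6612. The 1.5-fold limit is a rule of size and not a test.

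The ADP receptor P2ry12 and the lysophosphatidylserine receptor Gpr34 were the members lower past the limit. P2ry12 stood at 6103 CPM in the vehicle library and 3519 CPM in the other, a log2 ratio of -0.79 (95% interval -0.80 to -0.79). This placed it at percentile 2.16 of the 6612 ratios. Paired values are given in that order, vehicle before corticosterone, from here on. P2ry13, which also answers to ADP, stood at 1487 CPM and 1038 CPM, a log2 ratio of -0.52 (-0.54 to -0.50). That is 1.43-fold, short of the limit, at percentile 5.96. Gpr34 stood at 2155 CPM and 1271 CPM, a log2 ratio of -0.76 (-0.78 to -0.75) and percentile 2.42. The ratios of P2ry12 and Gpr34 were near those of the non-member markers Slc2a5 (-0.79) and Sparc (-0.66). The other markers were unequal: Fcrls was at -2.21, Trem2 at -0.57, Sall1 at -0.51, Olfml3 at -0.27, Siglech at -0.10, Cx3cr1 at -0.08 and Tmem119 at 0.21.

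P2ry6 and P2rx4 were the members higher past the limit. P2ry6, a receptor for UDP linked to phagocytosis by microglia, stood at 254 CPM and 395 CPM, a log2 ratio of 0.64 (0.61 to 0.67) and percentile 95.4. P2rx4, an ATP-gated channel known in spinal microglia after nerve injury, stood at 54.7 CPM and 87.0 CPM, a log2 ratio of 0.67 (0.59 to 0.74) and percentile 96.0. In cells of 500 to 2000 UMIs the log2 ratio of P2rx4 was 0.18, short of the limit, against 0.61 to 0.76 in the 3 deeper ranges. Its interval in those shallow cells (-0.23 to 0.59) spans 0 and just includes the limit.

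The remaining members differed little over the whole class. P2rx7, the ATP-gated channel upstream of inflammasome activation, stood at 132 CPM and 130 CPM, a log2 ratio of -0.03 with an interval (-0.08 to 0.02) that spans 0. P2rx4, its neighbour 16111 bases away, was past the limit. Adora3 stood at 166 CPM and 159 CPM (-0.07, -0.11 to -0.02), and Entpd1 at 519 CPM and 442 CPM (-0.23, -0.26 to -0.21).

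**Figure D1:**
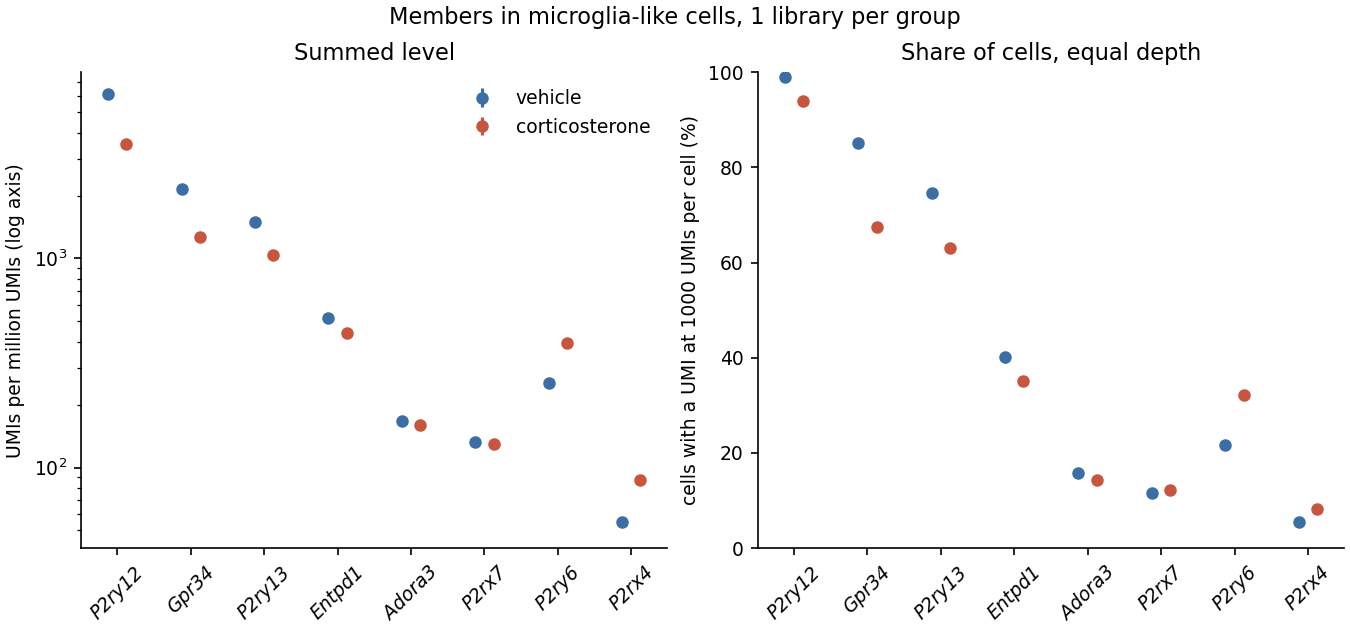
Levels of the 8 genes in microglia-like cells of the vehicle (blue) and corticosterone (red) libraries, as CPM on a log axis (left) and as the percent of cells with a UMI after each cell was thinned to 1000 UMIs (right); bars are 95% counting intervals, often smaller than the points, and each group is 1 library. P2ry12, Gpr34 and P2ry13 sit lower in corticosterone in both panels, and P2ry6 and P2rx4 sit higher.

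**Figure D2:**
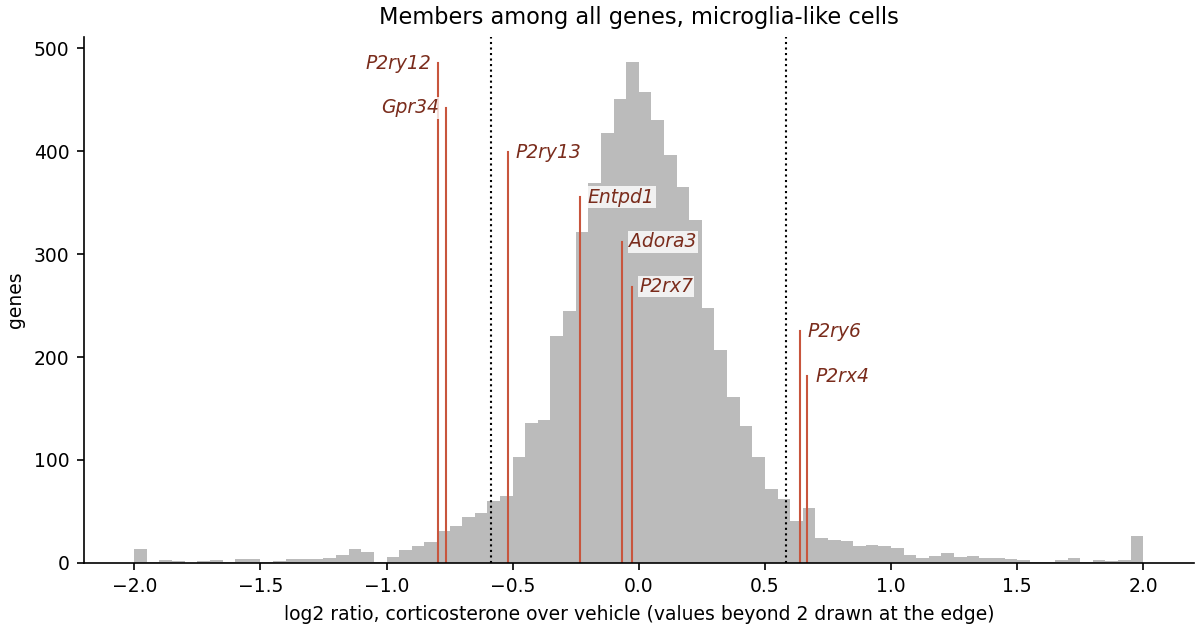
Histogram of log2 ratios of corticosterone over vehicle for the 6612 genes with a mean of at least 20 CPM in microglia-like cells, with the 8 genes as red lines and the 1.5-fold limits dotted. P2ry12 and Gpr34 fall left of the lower limit, P2ry6 and P2rx4 right of the upper, and the other 4 between them.

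At equal depth, the share of cells with a UMI differed between the libraries in the same direction as the CPM for all members except P2rx7, whose intervals overlapped. Thinned to 1000 UMIs, 7640 vehicle and 15348 corticosterone cells remained, leaving out 671 and 105 shallower cells. P2ry12 was found in 98.9% and 93.9% of them, Gpr34 in 85.2% and 67.5%, and P2ry13 in 74.6% and 63.1%. P2ry6 was found in 21.7% and 32.1%, and P2rx4 in 5.47% and 8.31%. Entpd1 was in 40.1% and 35.1%, Adora3 in 15.8% and 14.3%, and P2rx7 in 11.6% and 12.2%. Before thinning, when the corticosterone cells were deeper, Gpr34 was in 95.1% and 94.5% of cells and P2ry13 in 91.7% and 94.8%. The unthinned order of P2ry13 thus goes against its CPM. The same holds for Entpd1 (73.4% and 78.8%), Adora3 (40.4% and 45.8%), P2rx7 (34.7% and 41.2%) and, by little, P2ry12 (99.35% and 99.47%).

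UMIs of these genes also occurred in barcodes of other cell types. In immature neutrophil-like cells, thinned in the same way and with median depths of 2889 UMIs in vehicle and 7613 in corticosterone, P2ry12 was in 60.1% and 18.6% of cells, and P2rx4 in 1.31% and 0.847%. In neutrophil-like cells (median depths 2958 and 2426 UMIs), P2ry12 was in 81.9% and 39.3% of cells. P2rx4 was in 7.45% (4.13 to 12.2) of the vehicle ones, an interval that includes its 5.47% in microglia-like cells of that library. P2rx7 was in 8.51% (4.94 to 13.5) of the vehicle ones, which includes its 11.6% in those microglia-like cells. The vehicle shares of P2rx4 and P2rx7 are not read as shares of expressing cells. A microglia-like cell held a UMI of 3.53 of the 8 genes on average in vehicle and 3.27 in corticosterone at 1000 UMIs, and 86.0% and 75.1% of cells held at least 3.

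P2ry12 and Gpr34 stayed lower wherever the microglia-like cells were divided. Across 4 ranges of UMIs per cell and 4 of mitochondrial share, the log2 ratio of P2ry12 ran from -0.84 to -0.65 and that of Gpr34 from -0.85 to -0.64. P2ry6 ran from 0.58 to 0.84 over the same ranges, P2rx4 from 0.18 to 0.83 and P2rx7 from -0.17 to 0.12. P2ry6 was just short of the limit at 4000 to 8000 UMIs (0.577). Besides the shallowest cells, P2rx4 was short of it at 6% to 20% mitochondrial UMIs (0.52, 0.06 to 1.03). Within clusters 0, 1 and 2, each holding cells of both libraries, P2ry12 was at -0.43, -0.54 and -0.64, and Gpr34 at -0.50, -0.57 and -0.65. All were smaller in size than the values over the whole class, and only cluster 2 passed the limit for either gene. P2ry6 was at 0.67, 0.51 and 0.77 and P2rx4 at 0.88, 0.44 and 0.35 in those clusters.

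A second clustering, with each gene centred within its library, split the microglia-like cells into clusters that held cells of both libraries. Centring removes each gene's mean difference between libraries beforehand, so this sharing is in part built in. Cluster 5 (81 vehicle and 76 corticosterone cells), led by Lpl and Lgals3, genes of lipid handling and of activated microglia, had the lowest P2ry12 of the clusters with at least 50 cells in a library, at 2799 CPM and 1364 CPM. P2ry13 was also lowest there, at 804 CPM and 502 CPM, as were Gpr34, at 1622 CPM and 897 CPM, and Adora3, at 84.1 CPM and 89.9 CPM. In vehicle, the intervals of Gpr34 (1496 to 1755) and Adora3 (57.5 to 119) overlapped those of cluster 6 (1410 to 1915 and 74.2 to 228). Those genes are thus not ordered between these 2 clusters in vehicle. Entpd1 was at 534 CPM and 280 CPM in cluster 5, lowest in corticosterone only, and its log2 ratio there was -0.93 (-1.24 to -0.62), past the limit. P2rx7 was at 94.6 CPM and 91.7 CPM, both 0.71 of its level in the whole class. P2ry6 was at 260 CPM and 349 CPM, 1.03 and 0.88 of its level in the class, and P2rx4 was at 68.3 CPM and 104 CPM. Non-member microglia markers were lower in cluster 5 too, so the dip is not particular to the members. Against the whole class, Tmem119 was at 0.479 and 0.517, Slc2a5 at 0.495 and 0.474, Siglech at 0.620 and 0.517, and Sall1 at 0.658 and 0.639. On that scale P2ry12 was at 0.459 and 0.388, and Gpr34 at 0.752 and 0.706. The interferon-led cluster 3 (162 and 773 cells) held P2ry12 at 5662 CPM and 2874 CPM, Gpr34 at 1986 CPM and 984 CPM, and P2rx4 at 73.0 CPM and 106 CPM. In the 6 clusters with at least 50 cells of each library, the log2 ratio of P2ry12 ran from -1.04 to -0.62 and that of P2ry6 from 0.42 to 0.71. Some clusters were led by genes of other cells: cluster 2 by neutrophil genes (Ngp, Camp and Ltf) and cluster 4 by haemoglobin genes. Cluster 6 was led by H2-Aa, H2-Eb1 and H2-Ab1, and cluster 7 by Sparcl1, Cldn5 and Ly6c1. The part of those transcripts in the values was not tested.

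**Figure D3:**
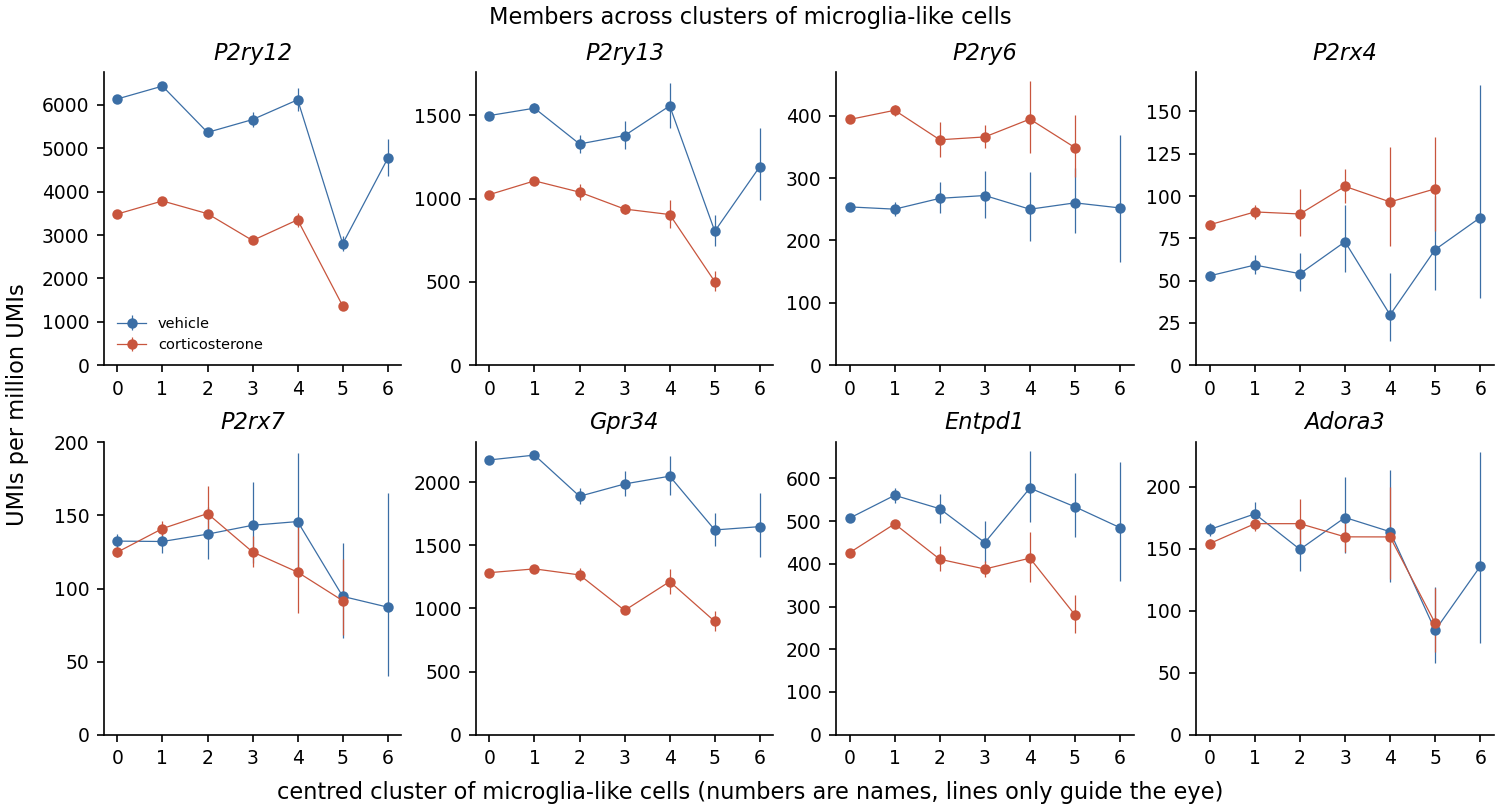
CPM of each gene (linear axes from 0) in the centred clusters of microglia-like cells with at least 50 cells, in vehicle (blue) and corticosterone (red), with 95% counting intervals; cluster numbers are names and the lines only guide the eye. P2ry12, P2ry13 and Adora3 dip in cluster 5 in both libraries, and Entpd1 dips there in corticosterone.

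Other cell classes of the sort held the genes in unequal proportion. Each gene's CPM was divided by its microglia-like CPM in the same library and set beside the same ratio for 4 microglia markers (Tmem119, Sall1, Siglech and Slc2a5), since microglial RNA in another barcode keeps its genes in 1 ratio. A gene is written above the markers where the lower bound of its ratio exceeds the highest of the 4. The class named from border-associated macrophage markers (clusters 3 and 8, with 1199 and 838 cells) had marker ratios of 0.768 to 0.859 in vehicle and 0.616 to 0.650 in corticosterone. Their median depths, 6730 and 6858 UMIs, exceeded the 3159 and 4003 of microglia-like cells, and the part of doublets was not tested, because the doublet caller marked 0 cells.

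P2rx7 and P2rx4 stood out in the macrophage-like cells. P2rx7 was at 223 CPM and 305 CPM, ratios of 1.68 (1.60 to 1.76) and 2.35 (2.24 to 2.46). P2rx4 was at 82.5 CPM and 139 CPM, ratios of 1.51 and 1.60. P2ry6 (1.05 and 0.897), Gpr34 (0.888 and 0.707) and Entpd1 (0.893 and 0.768) were above the markers in both libraries by smaller margins. P2ry12 and P2ry13 were above them in corticosterone only, and Adora3 in neither. Between libraries, P2rx7 was at a log2 ratio of 0.46 (0.38 to 0.54) in these cells, P2rx4 at 0.75, P2ry6 at 0.42, P2ry12 at -1.16 and Gpr34 at -1.09. The 4 markers ran from -1.26 to -0.19 there. At a clustering resolution of 1.0 the macrophage-like cells split largely by library. A cluster of 1017 vehicle and 23 corticosterone cells had a median depth of 2.54 times the library median. Another, of 171 and 771 cells, stood at 1.48 times. The ratios between libraries thus compare largely different groups of barcodes, and the part of this in the ratios was not tested.

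In neutrophil-like cells (206 and 276), the markers stood at 0.653 to 0.780 of their microglia-like level in vehicle and 0.457 to 0.539 in corticosterone. P2rx4 (1.25 and 0.728) and P2rx7 (1.05 and 0.862) were above them in both libraries, and Entpd1 (0.734) in corticosterone. In immature neutrophil-like cells (224 and 120), Entpd1 was above the markers in both, at 0.469 and 0.228, and P2rx7 in vehicle, at 0.515. The 61 monocyte-like cells of the corticosterone library had P2rx4 at 0.727, P2rx7 at 0.377 and P2ry6 at 0.320, against markers of 0.160 to 0.221. At a clustering resolution of 1.0 that class had 111 cells and its highest marker stood at 0.471, with P2rx4 at 0.885 and P2ry6 at 0.564 still above the markers and P2rx7 at 0.525 no longer so. Unnamed cluster 4 (519 and 1130 cells) had median depths of 959 and 1236 UMIs and median mitochondrial shares of 6.83% and 9.24%. Its markers stood at 0.492 to 0.760 in vehicle and 0.546 to 0.847 in corticosterone. P2rx7 (1.53 and 1.49) and Entpd1 (1.30 and 1.35) were above them in both libraries, and P2rx4 (1.05 and 1.09) in corticosterone only.

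**Figure D4:**
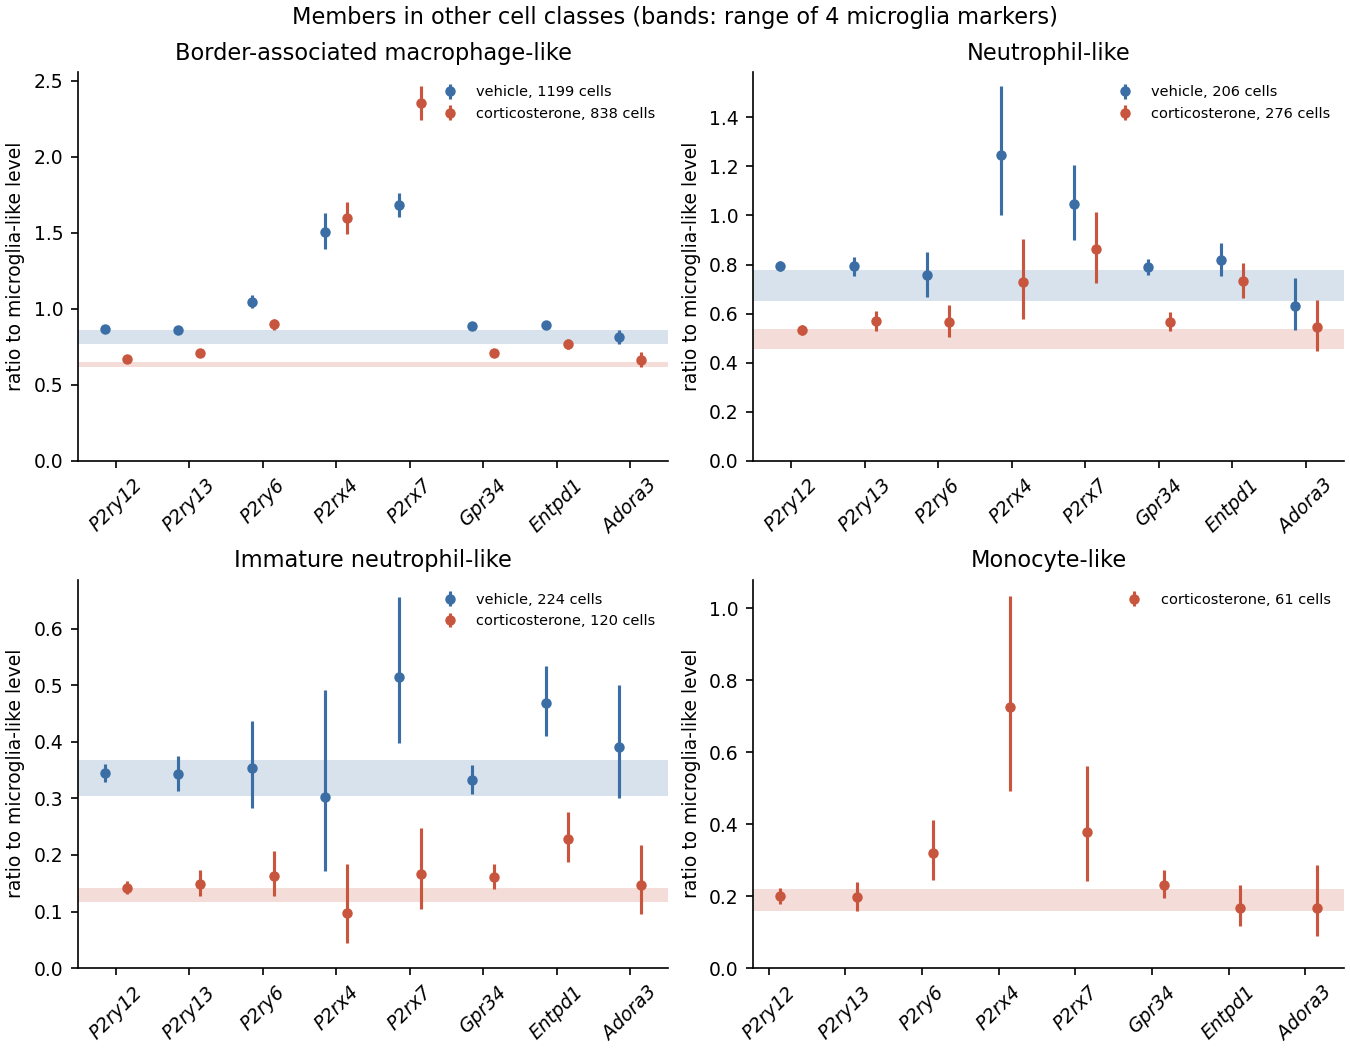
Ratio of each gene's CPM in 4 other cell classes to its microglia-like CPM in the same library (vehicle blue, corticosterone red, bars 95% counting intervals), with bands for the range of 4 microglia markers. P2rx7 and P2rx4 lie well above the bands in macrophage-like cells, and P2ry12 lies in or next to them in every panel.

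Other genes of the pathway were read from lists at a lower limit of 5 CPM, where 6.62% of 9687 genes were lower by 1.5-fold or more and 6.02% were higher. Of 6 other P2Y receptors only P2ry10b reached that level, at 37.5 CPM and 22.9 CPM (log2 ratio -0.71). Of 5 other P2X receptors only P2rx1 did, at 20.1 CPM and 13.6 CPM (-0.56), and none of Adora1, Adora2a and Adora2b did. Of 8 measured enzymes, 2 were lower and 3 higher. Pnp, which splits purine nucleosides, was at 277 CPM and 154 CPM (-0.85), with the caution that it has a close copy, and Ak1 was at -0.65. Enpp4 was at 22.6 CPM and 34.1 CPM (0.60), Adk, which turns adenosine into AMP, at 0.95, and Enpp1 at 1.05.

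Of 5 measured genes of nucleotide release and nucleoside transport, 3 were higher and 0 lower. Slc29a3, a nucleoside transporter of lysosomes, was at 411 CPM and 656 CPM (0.67), the vesicular nucleotide transporter Slc17a9 at 0.86 and the channel Panx1 at 6.88 CPM and 13.8 CPM, while the surface transporter Slc29a1 was at 0.02. For lysophosphatidylserine, the ligand of Gpr34, Abhd12, a lipase that degrades it, was at 836 CPM and 506 CPM (-0.72) and Abhd6 at -0.60, while Abhd16a, which forms it, was at 0.26. Of 18 G proteins and effectors, 1 was lower, Gnas (461 CPM and 273 CPM, -0.75), and Plcb2 was highest at 0.29. The inhibitory Gnai2, through which P2Y12 signals, was at 0.12.

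Of 8 genes downstream of P2X7, 2 were higher. Il1b was at 28.8 CPM and 290 CPM (3.33), with Panx1 as above, and Nlrp3 was lowest at -0.31. Of the overlapping or neighbouring genes, Med12l was lower at 82.1 CPM and 46.8 CPM (-0.81), close to P2ry12, which lies inside it. Cask, around Gpr34, was at -0.25 and Camkk2, beside P2rx4, at -0.20. Igsf10 was at 3.25 CPM and 7.23 CPM (1.16). Others had few UMIs: 18 and 124 for P2ry2, 6 and 72 for P2ry14, 14 and 21 for Gpr82, and 28 and 100 for Tmigd3, with 1 and 0 for its other identifier. Ak1, Adk, Enpp1, Slc17a9, Panx1, Abhd6 and Gnai2 were named after their values were seen.

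The genes most like each member were taken over 18 sums of cells, 1 for each cluster and library with at least 50 cells, among 6387 other genes. The sums share libraries and free RNA, so Pearson's r is a description. P2ry12 was most like Slc2a5 (0.996), Gpr34 (0.992) and Sparc (0.990), and Gpr34 most like P2ry12, Slc2a5 (0.990) and Crybb1 (0.982). P2ry13 was most like Gpr34 (0.980), Sparc and P2ry12 (both 0.975), and Adora3 most like Olfml3 (0.986), Cx3cr1 (0.983) and Papss1 (0.977). P2rx7 was most like Stab1 (0.969), Lrp6 (0.968) and Swap70 (0.963), and P2rx4 most like Ehd4 (0.953), Cyp27a1 (0.946) and Mipol1 (0.941). P2ry6 was most like G3bp1, C3ar1 (both 0.969) and Hsd17b4 (0.964), and Entpd1 most like St3gal6 (0.986), Itga6 (0.985) and Prag1 (0.982). Between the members, r was 0.862 for P2rx4 and P2rx7 and 0.132 for P2ry12 and P2rx4.

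Markers of other cells also differed inside the microglia-like class. Border-associated macrophage markers summed to 83.0 CPM and 42.1 CPM (0 of 8 at 0), neutrophil markers to 809 CPM and 650 CPM (0 of 7), immature neutrophil markers to 163 CPM and 58.4 CPM (0 of 6), and haemoglobin and other erythroid markers to 99.95 CPM and 374 CPM (0 of 5). Their part in the ratios was not tested.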

How the data were processed

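For each of 2 libraries the authors deposited a matrix of unnormalised UMI counts. Per the labels' protocols they came from a Singleron kit. The submitters' processing notes name bcl2fastq 2.19 and GRCm38. The aligner, counter and cell caller are not given in the sources used here. The deposited files use other words for the groups than the sample labels, which were followed.

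Cells with at least 500 UMIs, 300 genes and at most 20% mitochondrial UMIs were kept. Clustering (scanpy 1.11.5, leidenalg 0.10.2, 2000 variable genes without the members, 30 components, 15 neighbours, resolution 0.5) gave clusters named, outside microglia, by at least 3 markers 2-fold above other cells. Those other cells were weighted by library, a choice made after seeing the data. No microglia-like cluster met that rule. Such a cluster was named where at least 3 microglia markers were each found in at least 10% of its cells. The geometric mean of their levels also had to be at least 0.5 of that in all cells. UMIs were summed per class and library and scaled to CPM. Intervals at the 95% level are exact Poisson for CPM and Clopper-Pearson for shares. Those for ratios are exact binomial, given the sum of both UMI counts. Centred clustering used 1500 genes, 20 components and resolution 0.4. Named pathway genes are the highest and lowest of each list at 20 CPM, all neighbouring genes except 1 that is not reported here, and the 3 genes most like each member by log2(CPM + 1). Scripts were tested on simulated data. Members and lists were chosen with earlier results of these data known. Alternatives used edgeR 4.0.16 and DESeq2 1.42.0 for scaling factors only.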

Additional observations from a re-analysis of the deposited data

Results flagged for a closer look

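The log2 ratio of P2ry6 had opposite signs in the barcodes of 2 cell classes. It was higher in corticosterone in microglia-like cells (log2 ratio 0.64) and lower in immature neutrophil-like cells, at -0.48 (-0.96 to -0.01), from 87 and 69 UMIs. The difference was not tested, since each group is 1 library. In the immature neutrophil-like cells the 4 microglia markers ran from -2.07 to -1.17, and every other member was below 0. P2ry6 stood there at 0.354 and 0.163 of its microglia-like level. It was not above the markers in either library, the highest of which stood at 0.367 and 0.142. The part of microglial RNA in these UMIs was not tested.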

How the results depend on the processing

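Under 17 alternatives, P2ry12 (-0.87 to -0.72) and Gpr34 (-0.94 to -0.69) stayed past the lower limit in all. P2ry13 ran from -0.53 to -0.45 and passed it in none. P2ry6 (0.54 to 0.71) was past the upper limit in 16 and P2rx4 (0.45 to 0.74) in 15. P2rx7 (-0.10 to 0.05) and Adora3 (-0.43 to 0.01) lay on both sides of 0. The median of the 8 log2 ratios was -0.082 with TMM factors and -0.077 with DESeq2 size factors, which shift every ratio by 0.07. Requiring 3 microglia markers and no marker of another class in each cell left 336 and 428 cells, a median of -0.36, 2 members past the limit and 0 of them higher, with P2rx4 at 0.45 and P2ry6 at 0.54. Over all filtered cells, 1 was higher. With no level limit, 33.4% of genes were past 1.5-fold in either direction, against 10.1%. The causes were not tested. Without the centred clusters led by genes of other cells, or without shared barcodes, both chosen after seeing the data, no call changed. No paired analysis was possible because each group has 1 library, and for the same reason no replicate could be left out.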
